A study of Arabidopsis thaliana with 4 samples.

Results

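Aquaporins are membrane channels that let water and some small neutral solutes cross a lipid bilayer, and the 35 aquaporin genes of Arabidopsis thaliana were read here across 4 hypocotyl libraries. The members were taken by gene identifier within the PIP, TIP, NIP and SIP subfamilies, which gave 35 of the 32538 genes in the deposited table. They comprise 13 PIP genes (plasma membrane intrinsic proteins, of which 5 are PIP1 and 8 are PIP2), 10 TIP genes (tonoplast intrinsic proteins, which sit in the vacuolar membrane), 9 NIP genes (nodulin 26-like intrinsic proteins) and 3 SIP genes (small basic intrinsic proteins of the endoplasmic reticulum). All 35 were found. In an elongating hypocotyl the central vacuole of each cell fills with water as the wall yields, and PIP and TIP channels provide paths for that water across the plasma membrane and the tonoplast. NIP channels carry boric acid, arsenite, lactic acid and other small solutes rather than mainly water.

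The seedlings germinated for 24 hours and then grew in darkness at 22 °C, and hypocotyls were excised from them at an age of 5 days. Wild type of the accession Col-0 gave 2 libraries. The mutant shr-2 gave the other 2, which the titles name Shr-2. It lacks normal function of SHORT-ROOT (SHR), a GRAS transcription factor that specifies the endodermis, the cell layer around the vascular tissue. The series calls the libraries biological duplicates, with the number of seedlings in each not given in the sources used here. The mutation is present in the whole seedling, so effects from other organs cannot be told apart from local ones, and the excised hypocotyl mixes all its cell types.

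A genotype field of the mutant libraries names instead an overexpressor of SCL28 and a tissue field names the root tip, so both were checked. SHR read 28.4 and 28.9 FPKM in Col-0 against 2.57 and 3.45 FPKM in shr-2 (limma on log2(FPKM + 1), log2 fold change ± SE of -2.90 ± 0.14, adjusted p = 0.00049), and SCL28 read 5.0 and 5.24 FPKM in Col-0 against 5.81 and 5.57 FPKM in shr-2 (adjusted p = 0.412). The 6 root markers reached at most 0.345 FPKM, and none of the 6 was at 0 in all libraries. The 5 endodermal markers (SCR, MYB36, CASP1, PER64 and CASP4) summed to 243 and 285 FPKM in Col-0 against 8.5 and 9.32 FPKM in shr-2, and all 5 fell. The sum over 6 xylem markers was 259.8 and 279 FPKM in Col-0 against 290.5 and 282 FPKM in shr-2, with 2 higher and none lower, and over 3 phloem markers 111 and 119.6 FPKM in Col-0 against 94.4 and 115 FPKM in shr-2, with 1 lower. The 3 epidermal markers summed to 359 and 522 FPKM in Col-0 against 363 and 566 FPKM in shr-2 and none passed the test. Of 3 photosynthetic markers, RBCS1A, a small subunit of Rubisco, rose from 1223 and 1461 FPKM to 5517 and 7851 FPKM, while LHCB1.3 and LHCA1 did not pass (limma adjusted p = 0.135 and 0.216). Of the 2 guard cell lineage markers tested, SPCH rose from 1.3 and 1.55 FPKM to 2.91 and 3.63 FPKM and FAMA did not pass. By the estimate from the lowest values, 1 fragment on 1 kb of transcript gave 0.0422 to 0.0445 FPKM. The part of these cell type differences in the aquaporin results was not tested, and fewer cells of a type cannot be told apart from less RNA per cell.

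The channel pore is lined by a pair of short loops, each of which classically carries the residues Asn-Pro-Ala (NPA), and the coding sequence at these boxes shows how the family is built. A search of each coding sequence for in-frame AAY CCN codons spaced as in the family found exactly 1 pair of boxes in each of the 35 genes. In 27 genes the third codon of both boxes was an alanine codon (GCN), among them all 13 PIP and all 10 TIP genes. The other 8 were NIP1-1, NIP1-2, NIP5-1, NIP6-1, NIP7-1 and the 3 SIP genes, and NIP5-1 departed in both boxes. The genes on which the results turn are shown with 30 coding bases on each side of a box, 5′ to 3′ on the coding strand, with the 9 bases of the box in capitals. For the PIP and TIP genes the second box is shown, and for the NIP and SIP genes the first.
PIP2-2: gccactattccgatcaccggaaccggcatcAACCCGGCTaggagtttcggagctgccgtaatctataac
PIP2-3: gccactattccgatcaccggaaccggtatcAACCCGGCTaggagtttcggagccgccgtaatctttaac
PIP2-5: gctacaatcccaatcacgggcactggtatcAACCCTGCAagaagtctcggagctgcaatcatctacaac
PIP2-7: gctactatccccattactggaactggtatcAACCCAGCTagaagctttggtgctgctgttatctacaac
TIP1-2: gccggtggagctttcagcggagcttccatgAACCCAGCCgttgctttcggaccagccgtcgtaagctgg
TIP2-1: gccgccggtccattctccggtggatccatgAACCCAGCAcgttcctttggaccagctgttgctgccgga
TIP2-2: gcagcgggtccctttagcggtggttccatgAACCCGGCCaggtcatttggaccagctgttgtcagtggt
TIP2-3: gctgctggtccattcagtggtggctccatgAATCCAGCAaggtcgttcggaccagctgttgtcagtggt
TIP4-1: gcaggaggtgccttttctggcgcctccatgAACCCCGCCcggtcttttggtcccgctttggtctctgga
NIP5-1: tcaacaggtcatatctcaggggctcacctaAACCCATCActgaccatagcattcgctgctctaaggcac
NIP6-1: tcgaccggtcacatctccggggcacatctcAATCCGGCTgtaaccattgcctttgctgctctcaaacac
SIP1-1: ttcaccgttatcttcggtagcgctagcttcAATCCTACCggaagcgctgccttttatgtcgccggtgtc
SIP1-2: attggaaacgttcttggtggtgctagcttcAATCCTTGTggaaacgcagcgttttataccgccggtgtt

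All 13 stretches lie in coding exons, within a single exon each, and coordinates are those of TAIR10.1, counted from 1. The PIP stretches are at chr2:15613866-15613934 (minus strand), chr2:15618636-15618704 (plus strand), chr3:20303437-20303505 (plus strand) and chr4:16709653-16709721 (plus strand). Those of the TIP genes are at chr3:9722896-9722964 (minus strand), chr3:5506594-5506662 (plus strand), chr4:9700056-9700124 (plus strand), chr5:19248635-19248703 (minus strand) and chr2:11013703-11013771 (plus strand), and the rest at chr4:6432339-6432407, chr1:30351467-30351535, chr3:1073786-1073854 and chr5:6056156-6056224 (all minus strand). PIP2-2 and PIP2-3 differ at 3 of 69 bases here, TIP2-2 and TIP2-3 at 11, NIP5-1 and NIP6-1 at 19 and SIP1-1 and SIP1-2 at 23. The first box of SIP1-1 ends in ACC and that of SIP1-2 in TGT, and the first box of NIP5-1 ends in TCA where that of NIP6-1 has the alanine codon GCT.

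Aquaporin transcripts as a whole were lower in shr-2. The FPKM of the 35 genes summed to 11247 and 12896 in Col-0 against 5881 and 6941 in shr-2, so that the mutant mean was 53.1% of the wild-type mean and the genotypes did not overlap. TIP genes gave 6376 and 7771 in Col-0 against 3093 and 3742 in shr-2, a mutant level of 48.3% of the wild type. PIP1 genes summed to 1828 and 1899 in Col-0 against 1084 and 1214 in shr-2 (61.7% of the wild type) and PIP2 genes to 2925 and 3088 in Col-0 against 1576 and 1839 in shr-2 (56.8%). Sums were lower for the channels of both membranes. NIP genes, at 43.6 and 52.4 in Col-0 against 53.9 and 65.9 in shr-2, and SIP genes, at 73.9 and 85.2 in Col-0 against 74.5 and 79.4 in shr-2, made up little of the family. No test was made on these sums, since an exact permutation of 2 against 2 libraries cannot give a 2-sided p below 0.333.

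**Figure D1:**
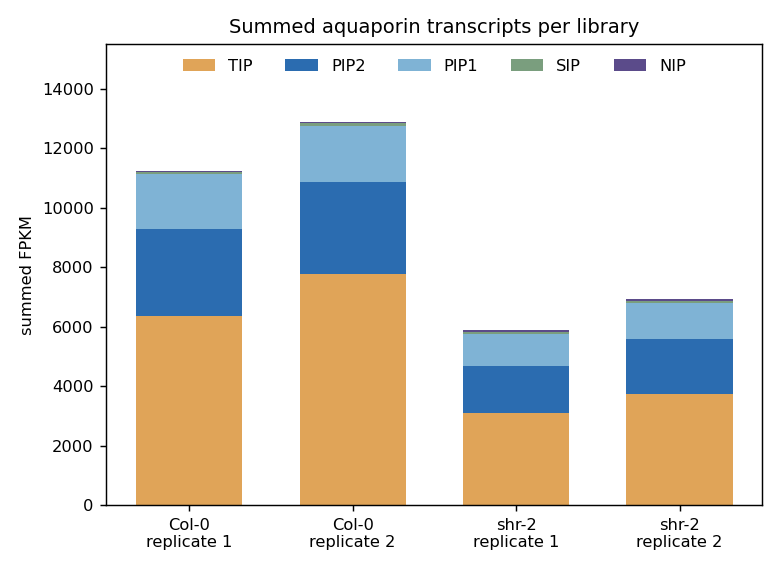
Summed FPKM of the 35 aquaporin genes in each library, stacked by group, with one bar for each of the 4 libraries and no error bar because each bar is 1 library. Both wild-type bars (11247 and 12896 FPKM) stand above both shr-2 bars (5881 and 6941 FPKM), and the TIP and PIP2 blocks shrink most in height.

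Of the 35 genes, 29 averaged 1 FPKM or more across libraries and were tested, and each of the 29 reached 1 FPKM in the mean of both genotypes. In shr-2, 16 fell, 3 rose and 10 did not pass (limma across 19920 genes, Benjamini-Hochberg adjusted p under 0.05). Over all genes tested, 13.7% were called lower and 13.9% higher, 27.6% in all. The median log2 fold change was -0.86 over the 29 aquaporins and 0.01 over all genes tested, and the 29 ranged from -2.82 to 2.49. Genes were taken as abundant where their average across both genotypes reached 100 FPKM. Among these, 11 of 13 aquaporins were lower and none higher, against 18.4% lower among all 1345 such genes. Of the 11, PIP2-4 and TIP2-2 reached that level only in the wild type. Their means were 174 and 176 FPKM in Col-0 against 59.4 and 34.7 FPKM in shr-2. How many of the 1345 genes reached it in only 1 genotype was not counted. Both shr-2 libraries lay below both wild-type libraries in 17 of the 29, beside 32.2% of all genes tested. Both lay above them in 6 of the 29, beside 33.9% of all genes tested. The number called lower was 10 on leaving out wild-type replicate 1 and 9 on leaving out replicate 2, where the number over all genes tested went from 2725 to 1094 and 1158, so the shares above do not apply to those counts. Not all of the 19 calls held whichever library was left out, and those lost are named below with their genes. How many calls held in this way over all genes was not counted.

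**Figure D2:**
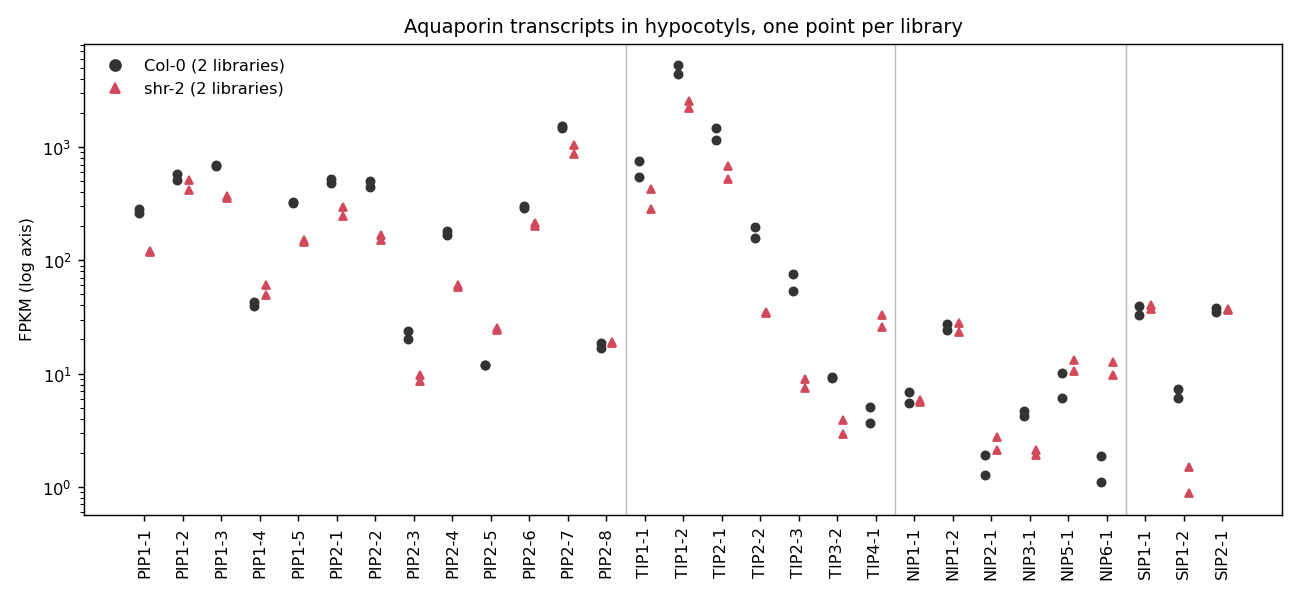
FPKM (log axis) of the 29 tested aquaporin genes in each library, with circles for the 2 wild-type and triangles for the 2 shr-2 libraries and grey lines between the PIP, TIP, NIP and SIP genes. The most abundant gene, TIP1-2, spans 2210 to 5270 FPKM, whereas no NIP gene exceeds 28.1 FPKM, and the triangles lie below the circles for most PIP and TIP genes.

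The PIP1 proteins reach the plasma membrane in complexes with PIP2 partners. PIP1-1 (AT3G61430, chromosome 3, 22733243 to 22735394) read 260.0 and 282 FPKM in Col-0 against 118 and 122 FPKM in shr-2. PIP1-5 (AT4G23400, chromosome 4, 12220641 to 12222468) read 328 and 319.6 FPKM in Col-0 against 146 and 151 FPKM in shr-2. In parentheses after a gene stand its log2 fold change ± SE and its adjusted p from limma. In both genes the mutant libraries lay far below the wild type and close to each other (limma, log2 fold change -1.17 and -1.12, SE 0.10 and 0.09, adjusted p = 0.00197 and 0.00193). PIP1-3 (AT1G01620, chromosome 1, 225665 to 227543), the most abundant PIP1 gene of the wild type, read 688 and 680.2 FPKM in Col-0 against 352 and 368 FPKM in shr-2 and fell by 0.92 on the log2 scale (SE 0.10, adjusted p = 0.00372). Leaving out wild-type replicate 1 (adjusted p = 0.0603) or replicate 2 (0.0546) ended the call. PIP1-2 (AT2G45960), which also passes carbon dioxide, stood at 513 and 573 FPKM in Col-0 against 418 and 513 FPKM in shr-2. Its genotypes overlapped, by less than 1 FPKM, and it did not pass (log2 fold change -0.23, adjusted p = 0.303). It was the most abundant PIP1 gene of the mutant. PIP1-4 (AT4G00430) read 39.3 and 43.2 FPKM in Col-0 against 49.5 and 60 FPKM in shr-2, with both mutant libraries above the wild type but an adjusted p of 0.079.

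PIP2 proteins are the strong water channels of the plasma membrane, and 6 of the 8 fell, beside 13.7% of all genes tested. The calls of PIP2-1, PIP2-6 and PIP2-7 did not hold on leaving out some single libraries, as given below. PIP2-2 (AT2G37170, chromosome 2, 15613368 to 15615022) read 445 and 503 FPKM in Col-0 against 150.2 and 168 FPKM in shr-2, and PIP2-4 (AT5G60660, chromosome 5, 24375368 to 24377206) read 182 and 166 FPKM in Col-0 against 60.8 and 58 FPKM in shr-2. These were the largest falls among the 13 PIP genes, to about 0.34 of the wild-type mean in each (limma, log2 fold change -1.57, SE 0.12, adjusted p = 0.00165 for PIP2-2, and -1.53, 0.10 and 0.00107 for PIP2-4). PIP2-3 (AT2G37180, chromosome 2, 15617635 to 15619155) stands beside PIP2-2 on chromosome 2 on the other strand. It read 20.3 and 23.9 FPKM in Col-0 against 8.65 and 9.71 FPKM in shr-2, was the rarer copy in every library, and fell too (limma, -1.18 ± 0.12, adjusted p = 0.00353). Their transcripts are 94.86% identical over 63.6% of PIP2-2, so the split of reads between them is uncertain. PIP2-1 (AT3G53420, chromosome 3, 19803473 to 19805730), a channel for water and hydrogen peroxide, read 481 and 525 FPKM in Col-0 against 244 and 297 FPKM in shr-2 (limma, -0.90 ± 0.14, adjusted p = 0.00954).

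The most abundant PIP gene, PIP2-7 (AT4G35100, chromosome 4, 16708361 to 16710407), read 1467 and 1551 FPKM in Col-0 against 868 and 1049 FPKM in shr-2 (limma, -0.66 ± 0.14, adjusted p = 0.0265). PIP2-6 (AT2G39010, chromosome 2, 16291280 to 16294101) read 302 and 289 FPKM in Col-0 against 201 and 213 FPKM in shr-2, the smallest change called in the family (limma, -0.51 ± 0.10, adjusted p = 0.0177). For both, the gap between genotypes was wider than the spread within them, but the calls were fragile. That of PIP2-6 failed on leaving out any 1 library (adjusted p from 0.0623 to 0.13), that of PIP2-7 without wild-type replicate 1 (0.191), replicate 2 (0.216) or shr-2 replicate 1 (0.118) and with no filter on low genes (0.0707), and that of PIP2-1 without wild-type replicate 1 (0.0733) or replicate 2 (0.0873). PIP2-5 (AT3G54820, chromosome 3, 20301759 to 20304309) went the other way. It read 12 and 11.9 FPKM in Col-0 against 24.1 and 25.1 FPKM in shr-2, 2.06 times the wild-type mean with narrow replicates (limma, 0.98 ± 0.09, adjusted p = 0.00247). In drought-stressed Arabidopsis leaves PIP2-5 and PIP1-4 are known as the PIP genes that rise while most others fall. PIP2-8 (AT2G16850) read 17 and 18.6 FPKM in Col-0 against 19.2 and 18.5 FPKM in shr-2 and did not pass (adjusted p = 0.575).

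**Figure D3:**
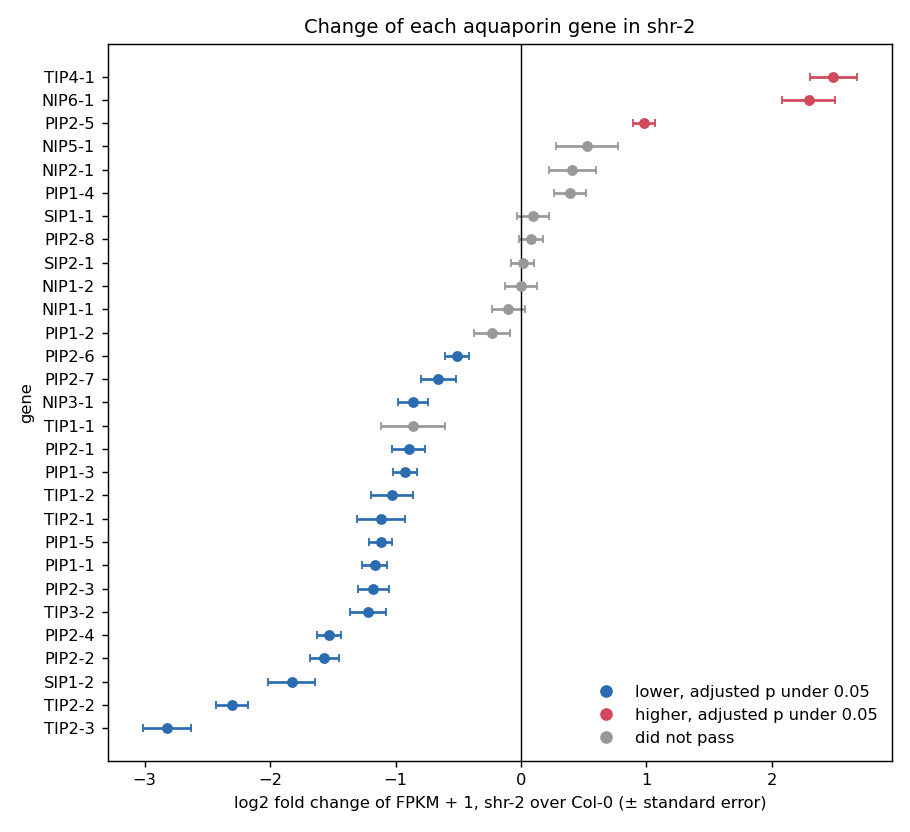
Log2 fold change of FPKM + 1 in shr-2 over Col-0 for the 29 tested aquaporin genes, with bars of 1 standard error from the limma fit, in blue where lower, red where higher and grey where the test was not passed. The 3 genes in red are TIP4-1 (2.49), NIP6-1 (2.30) and PIP2-5 (0.98), and the longest shifts to the left are those of TIP2-3 (-2.82) and TIP2-2 (-2.30).

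The TIP group held both the most abundant and the most changed genes. TIP1-2 (AT3G26520, chromosome 3, 9722443 to 9723904), a tonoplast water channel, read 4445 and 5269.9 FPKM in Col-0 against 2209.8 and 2546 FPKM in shr-2. No aquaporin was more abundant in any library, and its fall in FPKM was 43.8% of the net fall of the family sum (limma, -1.03 ± 0.16, adjusted p = 0.0114). The call was lost without wild-type replicate 1 (0.155), replicate 2 (0.195) or shr-2 replicate 1 (0.0596) and with no filter on low genes (0.0648), although the genotypes did not overlap. TIP1-1 (AT2G36830), its closest relative, read 542 and 754 FPKM in Col-0 against 286 and 429.7 FPKM in shr-2. Its libraries did not overlap between genotypes but varied widely within them, and it did not pass (log2 fold change -0.86, SE 0.26, adjusted p = 0.0646). It passed without shr-2 replicate 2 (0.0377), and the authors' deposited table calls it lower (q = 0.000587).

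TIP2-1 and TIP2-3 are known to pass ammonia as well as water. TIP2-3 (AT5G47450, chromosome 5, 19248249 to 19249622) read 53.8 and 76.1 FPKM in Col-0 against 8.94 and 7.51 FPKM in shr-2, and TIP2-2 (AT4G17340, chromosome 4, 9698940 to 9700472) read 157 and 196 FPKM in Col-0 against 34.4 and 35 FPKM in shr-2. Both mutant libraries of each gene were far below the wild type, at 0.127 of its mean for TIP2-3 and 0.197 for TIP2-2. These were the largest falls of the family on the log2(FPKM + 1) scale (limma, log2 fold change -2.82, SE 0.19, adjusted p = 0.00125 for TIP2-3, and -2.30, 0.13 and 0.000825 for TIP2-2), and both calls held whichever library was left out. The third member, TIP2-1 (AT3G16240, chromosome 3, 5505360 to 5507050), is by far the most abundant of them and read 1166 and 1461 FPKM in Col-0 against 525 and 687 FPKM in shr-2 (limma, -1.12 ± 0.19, adjusted p = 0.0138). The call ended on leaving out wild-type replicate 1 (adjusted p = 0.0756) or replicate 2 (0.112). TIP2-1 overlaps AT3G16250 and the non-coding AT3G03265 on the other strand, by 120 and 46 exonic bases. AT3G16250 read 4.98 and 3.3 FPKM in Col-0 against 20 and 21.9 FPKM in shr-2. AT3G03265 read 61.9 and 53 FPKM in Col-0 against 23 and 28.6 FPKM in shr-2.

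TIP4-1 (AT2G25810, chromosome 2, 11012499 to 11014171) showed the largest rise of the family on the log2(FPKM + 1) scale, while the plain ratio of means was larger for NIP6-1. It read 3.7 and 5.12 FPKM in Col-0 against 25.7 and 33 FPKM in shr-2, an increase of 6.67 times in the mean (limma, 2.49 ± 0.19, adjusted p = 0.00161). It made up 0.0363 ± 0.00482% of the family sum in Col-0 against 0.457 ± 0.0271% in shr-2 (SD, n = 2). TIP3-2 (AT1G17810, chromosome 1, 6130025 to 6131627) belongs to a pair of channels of the protein storage vacuoles of seeds. It read 9.15 and 9.37 FPKM in Col-0 against 2.95 and 3.93 FPKM in shr-2 and fell (limma, -1.22 ± 0.14, adjusted p = 0.00465). The non-coding AT1G05333 covers 39.4% of its exon bases on the other strand. That transcript was higher and moved alongside, at 33.5 and 31.5 FPKM in Col-0 against 11.6 and 10.7 FPKM in shr-2, so without strand-aware counting the reads of both models are mixed. AT1G17820 shares another 91 exon bases on the other strand and moved the opposite way, at 0.0614 and 0.0905 FPKM in Col-0 against 5.1 and 4.45 FPKM in shr-2. Its seed partner TIP3-1 was at or below 0.0494 FPKM in every library, and 4 other seed markers at or below 0.147 FPKM. TIP1-3 and TIP5-1, known from pollen, were at most at 0.265 FPKM and listed at 0 in all libraries, respectively. At an estimated 0 and 2 fragments in the wild type and 6 and 7 in shr-2, TIP1-3 was under the filter and was not tested in the main fit.

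Most NIP genes were rare, and 1 rose, 1 fell and 4 did not pass among the 6 that were tested. The share called, 33.3%, was near the 27.6% of all genes. NIP6-1 (AT1G80760, chromosome 1, 30350539 to 30352208), a boric acid channel known from shoot nodes and young leaves, read 1.1 and 1.88 FPKM in Col-0 against 9.65 and 12.7 FPKM in shr-2. Its mutant mean was 7.49 times that of the wild type and the libraries were well apart (limma, 2.30 ± 0.21, adjusted p = 0.00259). It shares 26 exon bases with AT1G80750 on the other strand. NIP5-1 (AT4G10380), the boric acid channel that loads the root, read 6.1 and 10.2 FPKM in Col-0 against 10.5 and 13.3 FPKM in shr-2. The higher wild-type library nearly reached the lower mutant library, and it did not pass here (log2 fold change 0.53, adjusted p = 0.183), whereas the authors' deposited table calls it higher (q = 0.0207). NIP3-1 (AT1G31885, chromosome 1, 11450315 to 11452068), which passes arsenite, read 4.26 and 4.65 FPKM in Col-0 against 1.91 and 2.11 FPKM in shr-2 and fell (limma, -0.86 ± 0.12, adjusted p = 0.00768), a call that ended on leaving out wild-type replicate 2 (adjusted p = 0.0552).

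NIP1-2 (AT4G18910), the most abundant NIP gene in every library, read 24 and 27.3 FPKM in Col-0 against 23.4 and 28.1 FPKM in shr-2. NIP1-1 (AT4G19030), a route for arsenite, read 5.55 and 6.86 FPKM in Col-0 against 5.61 and 5.79 FPKM in shr-2. In both the genotypes overlapped, with log2 fold changes of 0.00 and -0.10 (adjusted p = 0.993 and 0.611). NIP2-1 (AT2G34390), a lactic acid channel induced by low oxygen, read 1.92 and 1.26 FPKM in Col-0 against 2.11 and 2.75 FPKM in shr-2 and did not pass (adjusted p = 0.172). The non-coding AT2G08660, listed at 0 in all libraries, covers 59.7% of its exon bases on the other strand, so its own values are uncertain. NIP7-1, NIP4-1 and NIP4-2 are known from anthers and pollen. NIP7-1 read 0.646 and 0.292 FPKM in Col-0 against 0.467 and 1.01 FPKM in shr-2 and was under the filter. NIP4-1 was listed at 0 in all libraries, and NIP4-2 was listed at 0 in the wild type and at 0.305 and 0.0578 FPKM in shr-2, an estimated 8 and 2 fragments.

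Among the 3 SIP genes of the endoplasmic reticulum, 1 fell and 2 did not pass. The share lower was 33.3%, beside 13.7% of all genes, but it rests on 3 genes. SIP1-2 (AT5G18290, chromosome 5, 6055028 to 6058368) read 6.07 and 7.35 FPKM in Col-0 against 0.88 and 1.49 FPKM in shr-2, so that the mutant kept 0.176 of the wild-type mean (limma, -1.83 ± 0.19, adjusted p = 0.00328). This call held whichever library was left out. SIP1-1 (AT3G04090) read 32.7 and 39.7 FPKM in Col-0 against 36.8 and 40.7 FPKM in shr-2, and SIP2-1 (AT3G56950) read 35.1 and 38.1 FPKM in Col-0 against 36.8 and 37.2 FPKM in shr-2. For both SIP1-1 and SIP2-1, the replicates of the genotypes overlapped (log2 fold change 0.10 and 0.02, adjusted p = 0.605 and 0.916). SIP2-1 shares 147 exon bases with AT3G56940 on the other strand. AT3G56940 read 78.6 and 86.2 FPKM in Col-0 against 158 and 203 FPKM in shr-2 and was called higher.

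Close relatives in the family did not all move together. By identity of the coding sequence, 12 pairs of genes were each other's nearest member, and both genes of 10 pairs were tested. In 2 pairs both genes fell, PIP2-2 with PIP2-3 (94.8% identical) and TIP2-2 with TIP2-3 (83.2%). For PIP2-2 and PIP2-3 the split of reads is uncertain, so their falls may not be separate. In 1 pair the genes were called in opposite directions, since PIP2-5 rose and PIP2-6 fell, at 78.3% identity. The call of PIP2-6 failed on leaving out any 1 library. In 6 pairs only 1 gene passed the test, and in NIP1-1 with NIP1-2 (85.0%) neither did. Within those 6, SIP1-2 fell by 1.83 on the log2 scale beside a value of 0.10 for SIP1-1, PIP1-1 fell by 1.17 beside -0.23 for PIP1-2, and NIP6-1 rose by 2.30 beside 0.53 for NIP5-1. TIP1-2 and TIP1-1 had similar values, -1.03 and -0.86, and lay on either side of the threshold. PIP1-3 (-0.92) stood beside PIP1-4 (0.39), and PIP2-7 (-0.66) beside PIP2-8 (0.08). The calls of TIP1-2, PIP1-3 and PIP2-7 did not hold on leaving out some single libraries. The difference between the genes of a pair was not tested.

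**Figure D4:**
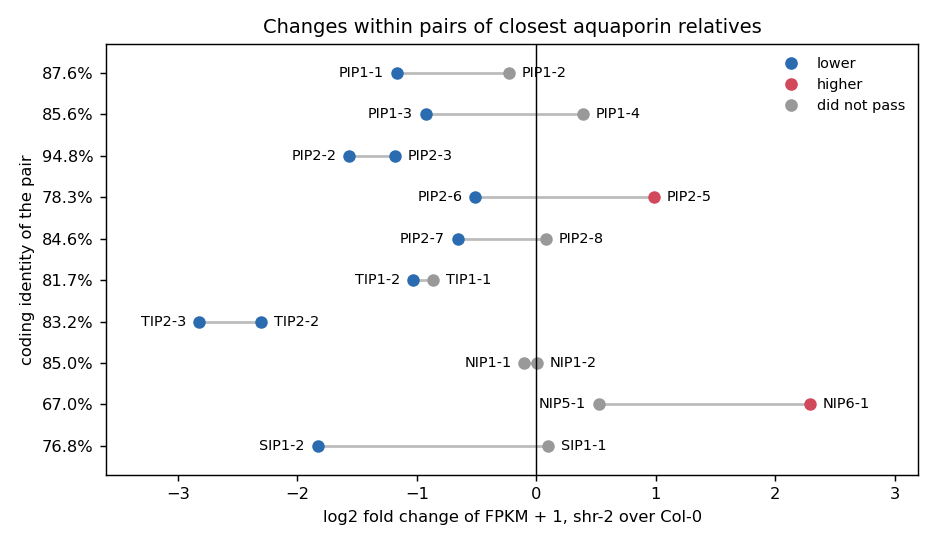
Log2 fold change of FPKM + 1 in shr-2 over Col-0 for the 10 pairs of nearest relatives with both genes tested, each pair on a line labelled with its coding identity and each point coloured by its call. TIP2-2 and TIP2-3 lie together on the left, at -2.30 and -2.82, and PIP2-5 (0.98) lies on the other side of 0 from PIP2-6 (-0.51).

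The same few genes made up most of the pool in both genotypes. In the wild type the 5 most abundant genes, TIP1-2, PIP2-7, TIP2-1, PIP1-3 and TIP1-1, held 73.9% and 75.3% of the family sum, and in shr-2 the same 5 held 72.1% and 73.2%. TIP1-2 alone was 40.2 ± 0.95% of the family sum in Col-0 against 37.1 ± 0.631% in shr-2, and PIP2-7 was 12.5 ± 0.718% of the family sum in Col-0 against 14.9 ± 0.252% in shr-2. PIP1-2, which did not pass the test, went from 4.5 ± 0.0791% to 7.25 ± 0.203% of the sum (SD, n = 2), and moved from rank 6 to rank 4 in the family. The shares of TIP2-2 and TIP2-3 went from 1.46% and 0.534% to 0.544% and 0.13%. As shares sum to 100%, a gene can gain share without a change of its own level.

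Genes that act on aquaporins, and genes listed for the tonoplast proton pumps, were read from lists. Of 6 genes known to regulate PIP proteins or their traffic, 1 fell and 5 did not pass, with a median log2 fold change of -0.24. The share lower, 16.7%, was near the 13.7% of all genes. The gene that fell was RMA1, a membrane-anchored ubiquitin ligase that holds back PIP2 proteins from the plasma membrane, at 16.5 and 14.6 FPKM in Col-0 against 8.66 and 8.36 FPKM in shr-2 (limma, -0.80 ± 0.10, adjusted p = 0.00628). It shares 200 exon bases with AT4G03505 on the same strand, and it did not pass without wild-type replicate 1 (adjusted p = 0.0596). Of 27 tested genes in the list of tonoplast proton pumps, 1 rose, 1 fell and 25 did not pass, with a median of -0.01. Whether each protein sits in the tonoplast was not tested. AVP1, the proton-pumping pyrophosphatase, rose from 252 ± 2.51 to 365 ± 32.1 FPKM (mean ± SD, n = 2, limma adjusted p = 0.0226, and 0.152, 0.138 and 0.102 without wild-type replicate 1, wild-type replicate 2 and shr-2 replicate 2). AVP1 shares 181 exon bases with AT1G05183 on the same strand. VHA-E3, a subunit of the vacuolar ATPase, fell from 58.8 and 52.5 FPKM to 30.7 and 26.8 FPKM (adjusted p = 0.00529, and 0.0502 without wild-type replicate 1). The share called was 7.41% among the pump genes and 65.5% among the aquaporins, beside 27.6% of all genes.

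Boron exporters act downstream of the NIP boric acid channels, and 3 of the 7 BOR genes were tested. BOR1 (AT2G47160), which loads boron into the xylem, fell from 38.8 and 47.3 FPKM to 19.4 and 21.6 FPKM (limma, -1.03 ± 0.13, adjusted p = 0.00572). BOR2 (AT3G62270) rose from 14.9 and 15.4 FPKM to 26.6 and 29.6 FPKM (limma, 0.85 ± 0.10, adjusted p = 0.00457). Of the boric acid channels, NIP6-1 was higher in the mutant and NIP5-1 did not pass. Of the 3 BOR genes tested, 1 rose and 1 fell, beside 13.9% higher and 13.7% lower of all genes. BOR3, the remaining tested gene, did not pass (adjusted p = 0.17), and the other 4 BOR genes were below the filter.

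Sequence motifs before the annotated gene starts were counted as a description. In the 250 bases before the start, on either strand, TTTGTC, part of the binding site of IDD zinc-finger proteins that partner SHR, was found in 8 of 35 aquaporin genes and in 24.1% of 27441 protein-coding genes. The 8 were PIP2-1, PIP2-8, TIP1-1, TIP2-1, TIP3-2, NIP1-2, NIP3-1 and SIP2-1, of which 4 fell and 4 did not pass, beside 55.2% lower among the tested aquaporins. The auxin response element TGTCTC was found in 1 aquaporin gene, SIP2-1, and in 10.9% of all. The G-box CACGTG was found in 0 of the 35 and in 6.48% of all. TTTGTC and TGTCTC can share 4 bases.

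In the authors' deposited table, made with Cuffdiff from the same libraries, 17 aquaporins were called lower and 4 higher of 30 with a completed test, beside 12.2% lower and 12.6% higher of all genes. The calls differed from those of limma in TIP1-1 and NIP5-1. Among completed tests the deposited table gave the largest changes as TIP2-3 (log2 fold change -2.98, q = 0.000587), NIP6-1 (2.91, q = 0.0117) and TIP4-1 (2.74, q = 0.000587), without a pseudocount.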

How the data were processed

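Poly(A) RNA of hypocotyls was sequenced from 2 Col-0 and 2 shr-2 libraries, grouped by their titles. Per the labels' protocols a stranded mRNA kit was used, the strand setting of the counting being not given in the sources used here. The submitters' processing notes name TAIR10 and the tools Cuffdiff 2.2.0, TopHat2 2.0.13 and CASAVA 1.8.2, and per the file headers the models were Araport11. The authors deposited FPKM (fragments per transcript length and per library size). Their table of the comparison holds p-values, q-values, a score (the test statistic), a log2 change, its fold as an unsigned ratio and mean FPKM, all deposited by the authors and quoted as such. FPKM is relative to each library, so a change in total RNA is not seen.

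The scale was log2(FPKM + 1). SHR and all genes averaging 1 FPKM or more entered one limma fit (limma 3.58.1, R 4.3.3, mean-variance trend, 2-sided, 2 residual and 3.02 prior degrees of freedom), with Benjamini-Hochberg adjusted p under 0.05 over all 19920 genes as the threshold. Fold changes on this scale understate changes of rare genes. Values are for whole genes, with SD over 2 libraries. The fit was tried on simulated data with independent errors in each library and replicate SDs shuffled over genes. That setting leaves out the shared deviation of libraries with the same number, so it does not test the calls made here. Depth was read from the lowest values: in genes with 1 transcript, values scaled to 1 kb peak between 0.02 and 0.06 FPKM, and the median there, which this window bounds, was taken as 1 fragment. Fragments so estimated cover counting error only.

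Gene models, coordinates and sequences come from the RefSeq annotation of TAIR10.1, in which all 32538 identifiers matched and 32533 deposited loci contained the annotated gene. For 7 aquaporins the deposited locus was longer than the gene, as it runs over an overlapping neighbour. Copies were sought with blastn 2.17.0 (at least 90% identity over at least 50% of the transcript) and coding identity was taken from global alignments (Biopython 1.88). Symbols follow the PIP1-1 style of most rows of the files, with PIP1-2, PIP1-4, PIP2-2, NIP4-2 and SIP2-1 listed there as PIP1B, PIP1.4, PIP2B, NIP4 and SIP2. Every aquaporin above the filter is named, and in the lists of regulators, proton pumps and boron exporters up to 4 called genes of smallest adjusted p, or the 2 most abundant where none was called. Members and lists were chosen with earlier results of these data known. Alternatives were another pseudocount, other filters, 2 scalings, no trend, the deposited calls, a replicate block and leaving out each library. Protein sequences were not used here.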

Additional observations from a re-analysis of the deposited data

How the results depend on the processing

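Every one of the 19 called aquaporins kept its direction under the 12 alternatives, except that NIP3-1 and SIP1-2 were not tested with a minimum of 5 FPKM. Among the genes that did not pass, NIP1-1 (0.03 without Col-0 replicate 2), SIP1-1 (-0.04) and SIP2-1 (-0.04, both without Col-0 replicate 1) and NIP1-2 (-0.12 to 0.00 in 4 alternatives) changed sign, as did the log2 ratio of the SIP sum (0.06 without Col-0 replicate 2). The 29 kept their calls with a pseudocount of 0.1, both scalings and no trend, as did the 26 left with a minimum of 5 FPKM. Without a filter PIP2-7 and TIP1-2 lost theirs. Leaving out each library gave 9 to 16 aquaporins lower (16 in the full fit) and 3 in each case higher, 2058 to 3843 genes called in all (964 to 2053 higher and 1094 to 1799 lower), 0 to 1 lower and 0 higher among the regulators, 0 to 1 higher and 0 to 1 lower among the proton pumps, and a median over the aquaporins of -0.91 to -0.57. That median was -0.51 over the 33 genes tested without a filter, where rare genes near a fold change of 0 enter. The summed FPKM of each group kept its log2 ratio within the spread of its replicates under rescaling. With a library left out, the other one stands for its genotype. The ratio then stays within that spread by construction, so this is no check of the sums. Libraries with the same number deviated together (correlation across genes 0.31), but with 2 pairs a shared number does not show a pairing. With the replicate block, 8729 genes were called (4486 higher, 4243 lower), with 17 aquaporins lower and 5 higher: TIP1-1 (adjusted p = 0.000993), PIP1-4 (0.00979) and NIP5-1 (0.0191) passed too, and the lists gave 1 regulator higher and 3 lower, and 2 pumps higher and 2 lower. The 6 rarest aquaporins were left out of the main fit by its filter. With 2 libraries a genotype, and values under 1 FPKM resting on few fragments, differences in them may have gone unseen.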
